A study of Homo sapiens with 4 samples.

Results

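Interferon-stimulated effector genes are the genes that cells switch on in response to interferon and whose products act against viruses directly or modify host proteins. The 52 genes described here were chosen by name from textbook knowledge of this class. The rule uses no measured value, but the list was drawn up with earlier results of these data known. The platform annotation gave a transcript cluster, a probe set that summarises 1 locus, for 50 of the 52, and UBA7 and TRIM25 were not analysed here. The 50 measured genes had 1 transcript cluster each, among 21448 tested. They were measured in SUIT2 cells, a human cancer cell line, on 4 arrays. In the fb-PMT group (n = 2) cells were exposed to 30 µM fb-PMT for 24 h, and in the control group (n = 2) to phosphate-buffered saline over the same time. fb-PMT is a polyethylene glycol conjugate of the thyroid hormone analog tetraiodothyroacetic acid with a fluorobenzyl group, made to occupy the hormone's site on integrin αvβ3. The question named for the study concerned genes for mitochondrial function, so the interferon genes lie outside it.

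Type I and type III interferons bind receptors on the cell surface, and the receptors' kinases JAK1 and TYK2 phosphorylate transcription factors. With IRF9 these form a complex that binds the interferon-stimulated response element (ISRE) in promoters. Interferon gamma acts through the gamma-activated site (GAS) and raises IRF1, a transcription factor that also binds ISRE-like sequences. Effector genes of the class bind foreign RNA, block membrane fusion, attach the ubiquitin-like protein ISG15 or ADP-ribose to proteins, or limit the nucleotide pool.

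The labels call the cells glioblastoma cells, whereas SUIT-2 is known as a line from a pancreatic ductal adenocarcinoma. Of 8 epithelial markers 7 were above the negative controls on all 4 arrays, with KRT8 at log2 values of 16.1 to 16.4 and EPCAM at 15.1 to 15.5, and CDH1 was below them. All 8 glial markers, GFAP and OLIG2 included, lay below the negative controls throughout. All 6 measured leukocyte markers and 4 of 5 measured fibroblast markers were also below them. Values are on a log2 scale, and "below the negative controls" means under the 95th percentile of the array's 612 negative control probe sets, which lay between 7.15 and 7.38. The arrays' medians over all transcript clusters were 6.27 to 6.28, and the number of arrays limits the precision. Nothing in the labels says that replicates came from separate cultures, and a p-value here measures just the spread among these samples, which may be technical.

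Most effector genes read higher after fb-PMT, but none passed the test on its own. The value was higher with fb-PMT for 47 of the 50 genes and lower for 3 (MX2, EIF2AK2 and ISG20). The median difference was 0.553 on the log2 scale, with a range from -0.13 to 1.60, against -0.0173 over all 21448 transcript clusters. Across the 4 pairings of a fb-PMT array with a control array, the median difference of the 50 genes was 0.454 to 0.577. The genes' median level was 7.99 and 8.25 in the control group and 9.12 and 9.11 after fb-PMT. The largest differences belonged to MX1 (1.60), IFIT3 (1.56) and UBE2L6 (1.37).

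By limma's test with Benjamini-Hochberg adjustment over all transcript clusters, 0 of the 50 genes passed an adjusted p of 0.05 in either direction, and 0.0979% of all transcript clusters passed as higher. The smallest change among the transcript clusters that passed was 3.05-fold, a size that none of the 50 reached. At an unadjusted p under 0.05, 31 of the 50 were higher and 0 lower, where 5.7% of all transcript clusters were higher and 5.49% lower. Both fb-PMT values lay above both control values for 40 of the 50 (80%), against 20.2% of all transcript clusters. Both lay below for 0 of the 50, against 22.3%. With 2 arrays a group, an exact two-sided permutation test of a single gene cannot go below p = 0.333. When limma's prior variance was allowed to follow signal intensity, 12 of the 50 passed as higher and 0 as lower, where 1.37% and 0.513% of all transcript clusters did. Those 12 were MX1, IFIT3, UBE2L6, PARP12, PARP14, SAMD9L, PARP9, NMI, IFI27, IFIT2, IFITM1 and XAF1. In bulk RNA, a change in the share of cells that carry a transcript and a change in RNA per cell cannot be told apart.

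Signal bounds what can be said of the dimmer genes. Of the 50, 34 were above the negative controls on all 4 arrays and 10 were below them on all 4, namely IFIT1, OASL, ISG20, CMPK2, RSAD2, HERC5, ISG15, TRIM22, RTP4 and IFI44L. IFIT2, IFIT5 and TRIM21 were below them on the 2 control arrays, and HERC6, OAS2 and EPSTI1 on some arrays. Among the 34 genes above the negative controls throughout, 32 were higher with fb-PMT, 30 had both fb-PMT values above both control values, and the median difference was 0.507. Over the 8696 transcript clusters at that level, 51.1% were higher, 26.4% had both fb-PMT values above both control values, and the median difference was 0.00601.

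**Figure D1:**
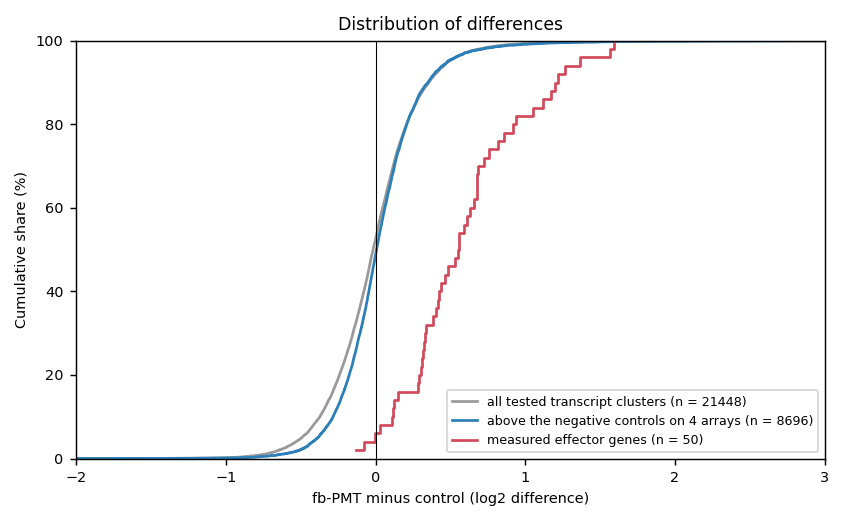
Cumulative share (y axis, %) of log2 differences (fb-PMT minus control, x axis, drawn from -2 to 3) for all 21448 tested transcript clusters, the 8696 above the negative controls on 4 arrays, and the 50 measured effector genes. The effector genes' curve lies to the right, with a median of 0.553 against -0.0173 for all transcript clusters and 0.00601 for those above the negative controls.

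The promoters of the genes with the largest differences show where the ISRE core lies. Promoter windows from RefSeq (build GRCh38.p14), 250 bases before to 50 after an annotated start, were given for 42 of the 50 genes. The core searched, GAAANNGAAA on either strand, was in at least 1 window of 30 of the 42 (71.4%). It was in a window of 1195 of 27305 genes (4.38%), and of 589 of the 14250 genes on the array that had a window (4.13%). The first 5 sequences that follow belong to genes among the 12 largest differences of genes above the negative controls on both arrays of a group. ISG15 and IFITM3 were added after their values were seen, because they hold the same core. IFITM3 had a log2 difference of 0.12, while ISG15 was below the negative controls on all arrays, so that nothing is read from its difference. Each line gives the 250 bases before a start, 5′ to 3′ on the gene's strand. Matches to the core or its reverse complement that lie wholly before the start are in capitals. The regions are MX1 at chr21:41431800-41432049 (plus strand), IFIT3 at chr10:89327747-89327996 (plus), PARP12 at chr7:140062952-140063201 (minus), IFIT5 at chr10:89414318-89414567 (plus), PARP9 at chr3:122564301-122564550 (minus), ISG15 at chr1:1013247-1013496 (plus) and IFITM3 at chr11:320861-321110 (minus).
MX1: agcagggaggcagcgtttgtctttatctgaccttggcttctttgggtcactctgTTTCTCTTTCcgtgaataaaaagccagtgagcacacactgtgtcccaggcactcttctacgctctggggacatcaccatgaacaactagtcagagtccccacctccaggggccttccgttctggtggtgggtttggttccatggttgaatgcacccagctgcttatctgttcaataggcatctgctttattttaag
IFIT3: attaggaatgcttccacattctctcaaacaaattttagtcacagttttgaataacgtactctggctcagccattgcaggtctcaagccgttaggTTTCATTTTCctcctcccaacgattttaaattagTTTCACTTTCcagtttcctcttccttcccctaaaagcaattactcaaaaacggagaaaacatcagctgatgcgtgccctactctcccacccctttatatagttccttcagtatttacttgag
PARP12: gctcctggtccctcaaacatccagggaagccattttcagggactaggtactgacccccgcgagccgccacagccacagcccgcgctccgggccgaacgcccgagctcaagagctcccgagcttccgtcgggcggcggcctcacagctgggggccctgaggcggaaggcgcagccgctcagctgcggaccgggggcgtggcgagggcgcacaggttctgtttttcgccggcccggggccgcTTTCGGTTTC
IFIT5: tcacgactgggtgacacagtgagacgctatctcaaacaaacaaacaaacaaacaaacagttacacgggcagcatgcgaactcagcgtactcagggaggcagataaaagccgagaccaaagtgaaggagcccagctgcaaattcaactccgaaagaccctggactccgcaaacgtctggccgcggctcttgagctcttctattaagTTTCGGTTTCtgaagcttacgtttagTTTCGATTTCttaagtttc
PARP9: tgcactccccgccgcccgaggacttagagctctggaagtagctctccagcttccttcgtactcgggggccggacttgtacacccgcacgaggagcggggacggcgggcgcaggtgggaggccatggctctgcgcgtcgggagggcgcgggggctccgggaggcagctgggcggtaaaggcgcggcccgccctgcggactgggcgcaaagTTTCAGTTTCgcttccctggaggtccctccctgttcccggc
ISG15: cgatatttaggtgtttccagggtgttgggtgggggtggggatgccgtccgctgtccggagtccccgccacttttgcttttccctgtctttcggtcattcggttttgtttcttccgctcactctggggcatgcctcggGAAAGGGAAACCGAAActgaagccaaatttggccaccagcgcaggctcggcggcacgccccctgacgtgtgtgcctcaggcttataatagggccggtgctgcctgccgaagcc
IFITM3: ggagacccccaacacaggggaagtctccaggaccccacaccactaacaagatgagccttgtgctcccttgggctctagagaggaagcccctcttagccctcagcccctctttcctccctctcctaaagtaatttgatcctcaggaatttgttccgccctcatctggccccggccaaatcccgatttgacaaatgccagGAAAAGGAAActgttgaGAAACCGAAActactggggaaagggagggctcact

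In these windows IFIT3 has cores that begin at positions -156 and -122 from the start, and IFIT5 at -45 and -19. A further IFIT5 match, at -4 to 6, crosses the start and is not in capitals. PARP12 has its core at -10, next to the start, and MX1 at -196 in the window shown. Where a gene had several windows, the one with the most matches wholly before the start was shown. Another IFIT3 window holds as many, beginning at -94 and -51, and the first listed was shown. In another MX1 window the match lies after the start, at 12 to 21. ISG15 holds overlapping matches at -113 and -107, and IFITM3 holds matches at -52 and -35. PARP9 and DTX3L are transcribed in opposite directions from neighbouring starts and share 1 core, at chr3:122564332-122564341, which lies at -41 to -32 for PARP9 and at -6 to 4 for DTX3L. The 30 genes with the core had a median difference of 0.545 (28 of 30 higher), and the 12 with a window but no match had 0.516 (12 of 12 higher). These medians take in genes below the negative controls on all 4 arrays. With the core these are IFIT1, ISG20, RSAD2, HERC5, ISG15, RTP4 and IFI44L, and without it CMPK2. The medians were not compared by a test, and nothing is read from how close they are. Among the 12 largest differences of genes above the negative controls on both arrays of a group, 8 had the core, and UBE2L6, SAMD9L, XAF1 and SP110 did not. The GAS motif TTCNNNGAA, which reads the same on both strands, was in a window of 12 of 42 genes (28.6%), against 9.38% of all genes. In 5 of them (BST2, EPSTI1, IFI27, IFITM1 and MX1) it overlapped the ISRE core. Genes with GAS had a median difference of 0.548. Those without had 0.539, with the genes below the negative controls on all 4 arrays among them. A match is a description of letters in the window, and binding was not measured.

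**Figure D2:**
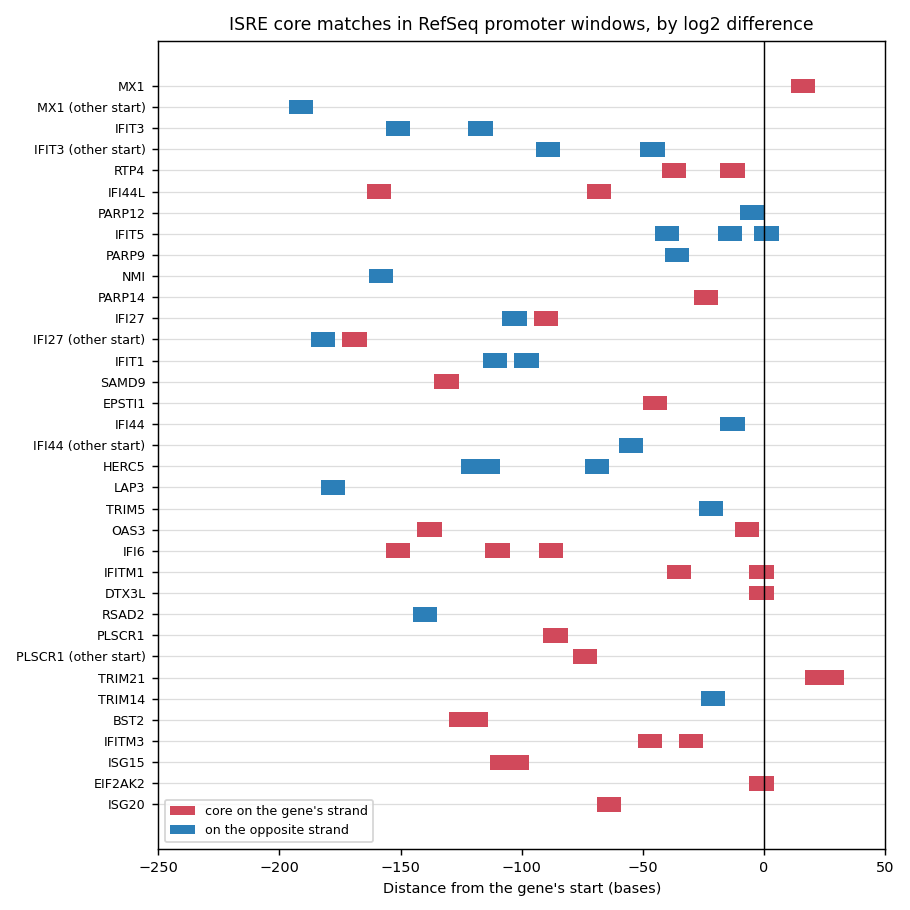
Distance of ISRE core matches from an annotated start (x axis, bases) for each effector gene with a match (rows, largest log2 difference at the top, with a further row where another start of the gene has matches), coloured by strand. In 27 genes at least 1 match lies wholly before a start, as in IFIT3 at -156 and -122 in its first window. Genes below the negative controls, ISG15 among them, are drawn too, and their place in the order carries no meaning.

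The first role group, effectors that act on RNA, held 12 measured genes, with a median difference of 0.38. Of these, 10 were higher with fb-PMT, against 47.3% of all transcript clusters, and 5 at an unadjusted p under 0.05, against 5.7%. IFIT1 binds RNA whose cap lacks the methylation of host messages. IFIT3, which stabilises the RNA-binding IFIT1, read 8.18 and 8.23 in the control group and 9.73 and 9.80 after fb-PMT. The groups were well apart, by 1.56 ± 0.15 (SE) on the log2 scale or 2.95-fold, with an adjusted p of 0.0506 just outside the threshold. IFIT5 read 6.96 and 6.86 against 8.29 and 7.63. Its control arrays were below the negative controls, so the difference of 1.05 ± 0.24 stands as at least 1.58-fold (adjusted p = 0.273). IFIT2, which passed only with the intensity trend (adjusted p = 0.0314), read 6.24 and 5.84 against 7.13 and 7.30. Only 1 of its 4 values was above the negative controls of its own array, so no fold is given. IFIT1 was below the negative controls on all 4 arrays, at 5.84 and 6.01 against 6.45 and 6.76.

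The oligoadenylate synthetases make the messenger that activates RNase L, a nuclease that cuts viral and cellular RNA. OAS1, OAS3 and OAS2 are direct neighbours in the genome and had differences of 0.03, 0.43 and 0.68. OAS1 read 12.50 and 12.27 in the control group and 12.28 and 12.55 after fb-PMT. The groups overlap fully, and the 95% interval of the difference runs from -0.41 to 0.47 (adjusted p = 0.966). OAS2 read 7.22 and 7.42 against 7.88 and 8.12, with no overlap, a difference of 0.68 ± 0.17 and an adjusted p of 0.308. OAS3 read 9.03 and 9.51 against 9.57 and 9.83. Its groups did not overlap but lay close (0.43 ± 0.22, adjusted p = 0.525). EIF2AK2 encodes PKR, the kinase that halts translation when it binds double-stranded RNA. It had high values in all samples, at 13.01 and 13.20 against 13.09 and 13.10. Its difference was -0.01, with a 95% interval from -0.39 to 0.37 (adjusted p = 0.991). ADAR, which edits adenosines in double-stranded RNA, and ZC3HAV1, which binds CpG-rich viral RNA, had differences of 0.33 and 0.32.

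**Figure D3:**
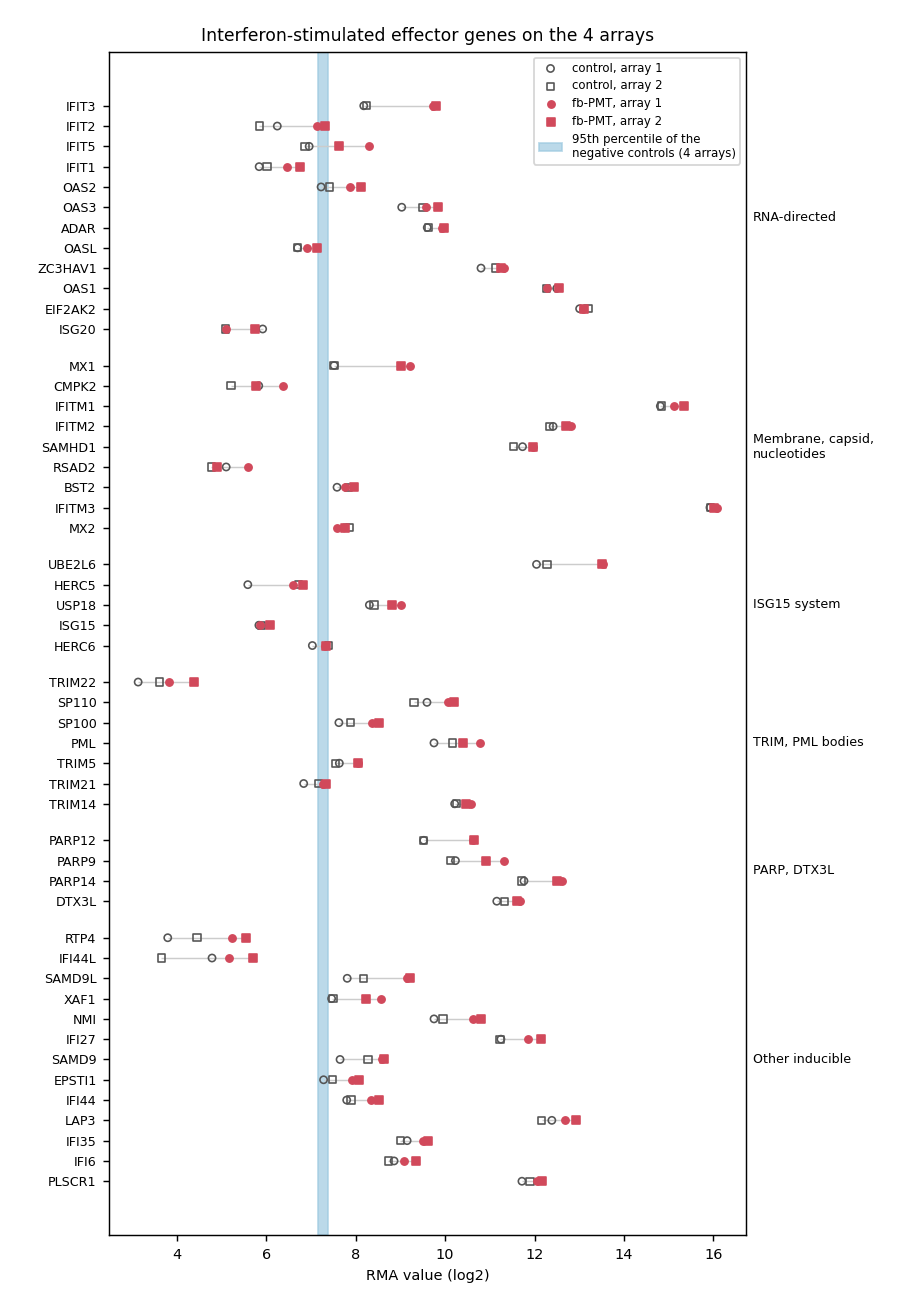
RMA values (x axis, log2) of the 50 measured effector genes (rows, by role group) on each array, with open symbols for control and filled symbols for fb-PMT, circles for array 1 and squares for array 2; the band spans the negative controls' 95th percentiles. The fb-PMT symbols of MX1, IFIT3, UBE2L6 and PARP12 lie clear to the right of the control symbols, and those of OAS1 and EIF2AK2 mix with them.

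Among restriction factors that act on membranes, capsids or the nucleotide pool, 8 of 9 were higher with fb-PMT, with a median difference of 0.335. Of the 9, 3 were higher at an unadjusted p under 0.05, against 5.7% of all transcript clusters. MX1, a dynamin-like GTPase that traps viral nucleocapsids, read 7.51 and 7.51 in the control group and 9.20 and 9.01 after fb-PMT. This was the largest difference of the 50 genes, 1.60 ± 0.15 or 3.02-fold, and every pairing of arrays gave 1.50 to 1.69. Its adjusted p of 0.0556 lay just outside the threshold. MX2, its direct neighbour in the genome and a factor that blocks the entry of HIV into the nucleus, read 7.74 and 7.86 against 7.58 and 7.76. The MX2 groups overlap, and the difference was -0.13 with a 95% interval from -0.52 to 0.26 (adjusted p = 0.804). Pairings of arrays gave -0.28 to 0.02 for MX2, a range that does not meet that of MX1, although the difference between both genes was not tested.

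The IFITM proteins sit in membranes and hinder fusion of viruses with the cell, and their genes lie side by side. IFITM1 read 14.81 and 14.84 against 15.13 and 15.35, which was 0.41 ± 0.16 higher with fb-PMT (adjusted p = 0.434). IFITM2 read 12.41 and 12.34 against 12.82 and 12.70, which was 0.38 ± 0.15 higher (adjusted p = 0.445). Neither gene's groups overlapped. IFITM3 read 15.93 and 15.94 against 16.09 and 16.02, with a 95% interval of the difference from -0.24 to 0.48. These 3 genes are close in sequence, so signal may be shared between their probe sets and the values are uncertain for each gene. SAMHD1, which hydrolyses deoxynucleotides, read 11.73 and 11.53 against 11.96 and 11.98. Its groups did not overlap, and the difference was 0.34 ± 0.16 (adjusted p = 0.502). BST2, the tetherin that holds budding viruses, had a difference of 0.15 with overlapping groups. The neighbours RSAD2 (viperin) and CMPK2 lay below the negative controls on every array.

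The ISG15 system attaches a ubiquitin-like protein to targets through an activating, a conjugating and a ligating enzyme. All 5 measured genes read higher with fb-PMT, but ISG15, HERC5 and HERC6 changed sign in some fits without 1 array. The groups did not overlap for 2 of the 5 (40%), against 20.2% of all transcript clusters with both fb-PMT values above. The conjugating enzyme UBE2L6 read 12.04 and 12.28 in the control group and 13.54 and 13.51 after fb-PMT. The fb-PMT arrays lay well above, by 1.37 ± 0.16 or 2.58-fold (adjusted p = 0.0756). USP18, the protease that removes ISG15 and also restrains the interferon receptor, read 8.30 and 8.41 against 9.01 and 8.82. Its groups did not overlap (0.56 ± 0.16, 1.47-fold, adjusted p = 0.347). The modifier itself, ISG15, was below the negative controls on every array, at 5.83 and 5.88 against 5.85 and 6.09. HERC5, the main ligase of the system in human cells, was also below them throughout. HERC6, a relative of HERC5 and its neighbour in the genome, read 7.03 and 7.40 against 7.31 and 7.34, with overlapping groups and a difference of 0.11 (95% interval -0.34 to 0.56).

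All 7 measured TRIM and PML nuclear body genes were higher on both fb-PMT arrays than on either control array, against 20.2% of all transcript clusters. The median difference was 0.633. Of the 7, 5 were higher at an unadjusted p under 0.05, against 5.7% of all transcript clusters. Both counts include TRIM22, whose signal was below the negative controls. SP110 read 9.59 and 9.30 against 10.06 and 10.21. SP100, an organiser of PML nuclear bodies and a relative of SP110, read 7.62 and 7.88 against 8.35 and 8.51. Both had a difference of 0.68 ± 0.17, with adjusted p-values of 0.308 for SP110 and 0.306 for SP100. PML, the scaffold of these bodies, read 9.75 and 10.17 against 10.79 and 10.40. Its replicates spread more (0.63 ± 0.22, adjusted p = 0.403). TRIM5, which recognises retroviral capsids, read 7.63 and 7.54 against 8.05 and 8.04, a difference of 0.46 ± 0.15 (adjusted p = 0.378). TRIM14, a signalling adaptor at mitochondria, and TRIM21, the receptor for antibody inside cells, had differences of 0.28 and 0.29, and TRIM22 was below the negative controls on all 4 arrays.

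The ADP-ribosyltransferases and the ubiquitin ligase DTX3L formed the group with the highest median difference, 0.879. All 4 genes had both fb-PMT values above both control values. That held for 20.2% of all transcript clusters and 26.4% of those above the negative controls on all 4 arrays. All 4 genes were also higher at an unadjusted p under 0.05, against 5.7% of all transcript clusters. PARP12, which modifies proteins at the Golgi and blocks viral translation, read 9.52 and 9.52 in the control group and 10.62 and 10.66 after fb-PMT. Replicates were nearly alike, and the difference was 1.12 ± 0.14 or 2.17-fold (adjusted p = 0.0932). PARP9 read 10.23 and 10.11 against 11.32 and 10.91, which was 0.94 ± 0.19 or 1.92-fold (adjusted p = 0.246). DTX3L, the partner of PARP9 in a ubiquitin ligase complex, read 11.15 and 11.33 against 11.68 and 11.61. Although PARP9 and DTX3L share a promoter region, DTX3L had the smaller difference, 0.40 ± 0.15 (adjusted p = 0.435). The difference between both genes was not tested. PARP14, a large macrodomain enzyme that attaches and reads ADP-ribose, read 11.76 and 11.72 against 12.61 and 12.51. Its groups were well apart, by 0.82 ± 0.15 or 1.76-fold (adjusted p = 0.203).

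All 13 other interferon-inducible genes were higher on both fb-PMT arrays than on either control array, against 20.2% of all transcript clusters. Of the 13, 12 were higher at an unadjusted p under 0.05, against 5.7% of all transcript clusters. Both counts include RTP4 and IFI44L, whose signal was below the negative controls. The median difference was 0.654. SAMD9L, a factor that restrains translation and cell growth, read 7.81 and 8.16 against 9.15 and 9.21. The difference of 1.20 ± 0.18 (2.29-fold, adjusted p = 0.132) was the largest among the genes of this group above the negative controls. Its neighbour SAMD9 had a difference of 0.65. XAF1, an antagonist of the apoptosis inhibitor XIAP, read 7.46 and 7.49 against 8.55 and 8.23, which was 0.92 ± 0.17 higher (adjusted p = 0.22). NMI, which binds STAT proteins and IFI35, read 9.75 and 9.95 against 10.62 and 10.79, which was 0.85 ± 0.16 higher (adjusted p = 0.223). Neither gene's groups overlapped, and IFI35 had a difference of 0.48. IFI27, a small membrane protein of mitochondria, read 11.25 and 11.23 against 11.85 and 12.14. Its difference was 0.76 ± 0.17 or 1.69-fold (adjusted p = 0.256). RTP4 and IFI44L had larger differences (1.27 and 1.22) but lay below the negative controls on every array, so no fold is given for them.

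**Figure D4:**
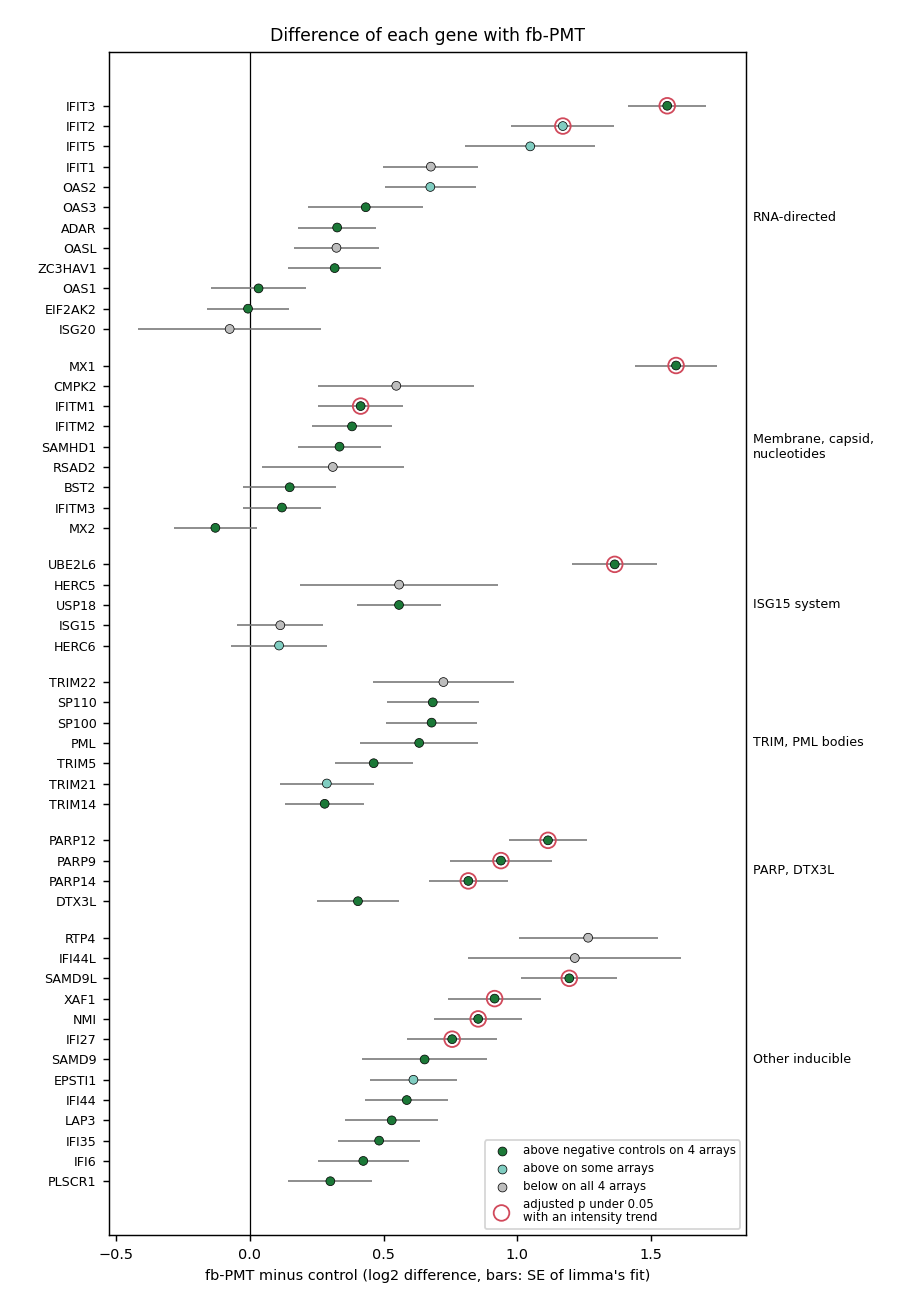
Log2 difference (fb-PMT minus control, x axis) of each measured effector gene by role group, with bars of 1 SE from limma, colours for signal against the negative controls and rings for the 12 genes with an adjusted p under 0.05 under an intensity trend. MX1 and IFIT3 lie farthest to the right at 1.60 and 1.56, and MX2 lies farthest to the left at -0.13.

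Genes that lie upstream of the effectors, or that respond chiefly to interferon gamma and IRF1, were read from 5 further lists with 76 measured genes. Of these 76, 3 rose with fb-PMT past the threshold, namely IRF1, GBP4 and PSMB9, where 0.0979% of all transcript clusters did. IRF1 read 7.83 and 7.64 in the control group and 10.35 and 10.56 after fb-PMT, a rise of 2.72 ± 0.17 or 6.57-fold (adjusted p = 0.0179). GBP4, a guanylate-binding GTPase, read 7.16 and 7.14 against 9.39 and 9.52, the first 2 values lying below the negative controls, and rose at least 4.45-fold (adjusted p = 0.0179). PSMB9, a catalytic subunit of the immunoproteasome, read 12.14 and 12.09 against 13.89 and 13.87, a rise of 3.41-fold (adjusted p = 0.0345). These calls rest on all 4 arrays: without control replicate 1 only IRF1 passed, and without any of the other 3 arrays none of the 3 did.

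None of the 20 measured interferon genes was above the negative controls on any array. IFNB1, the interferon beta gene, read 4.22 and 3.86 against 3.86 and 3.67. Of 11 receptors, kinases and SOCS inhibitors, 7 were higher with fb-PMT and 0 passed. The largest differences among those above the negative controls were those of IL10RB, a receptor chain for type III interferon (0.58, adjusted p = 0.332), and JAK1 (0.34, adjusted p = 0.484). Of 8 measured STAT and IRF genes, 7 were higher and 1, IRF1, passed. IRF9 had a difference of 0.57 (adjusted p = 0.344), and IRF7 was below the negative controls. Of 13 sensors and adaptors, 9 were higher and 0 passed. TLR3, the endosomal receptor for double-stranded RNA, read 10.58 and 10.95 against 12.46 and 12.46, a difference of 1.70 ± 0.18 (adjusted p = 0.061). RIGI, the cytosolic RNA sensor, had a difference of 0.90 (adjusted p = 0.209). Of the 24 measured genes typical of interferon gamma and IRF1, 21 were higher, 2 passed, and the median difference was 0.801. These values and those of the 50 effector genes come from the same 4 arrays.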

How the data were processed

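Total RNA was hybridised to 4 whole-transcript arrays with 1 colour. The authors deposited log2 values made with RMA in Transcriptome Analysis Console (version 4.0.1.36), as the submitters' processing notes state. RMA corrects background, normalizes between arrays, which removes shifts shared by most genes, and shrinks differences of dim probe sets. The RMA variant was not given in the sources used here, nor was the genome build. Of 24351 deposited probe sets, 2903 controls were left out and 21448 were fitted with limma 3.58.1 in R 4.3.3 (fb-PMT minus control, no covariate, no intensity trend, two-sided, Benjamini-Hochberg, threshold 0.05), with 2 residual and 3.72 prior degrees of freedom. In data simulated from the arrays' means and limma's prior variance, the fit recovered 11.1% of 2-fold and 89.1% of 4-fold changes. It made 7.8 false calls a run, with 200 changed transcript clusters in each of 20 runs. The platform annotation named 17709 transcript clusters by 1 symbol and 3739 by none. Folds against a group below the negative controls are lower bounds ("at least") computed from their 95th percentile.

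Members and lists were chosen with earlier results of these data known. Named from each role group were the 4 genes with the largest difference among those above the negative controls on both arrays of a group, any such gene lower at an unadjusted p under 0.05, and the 3 lowest differences among such genes. From each further list came those that passed, otherwise the 2 largest differences above the negative controls. Other genes named were chosen after their values were seen. Promoters shown were those of genes among the 12 largest differences above the negative controls with an ISRE core, at most 5. Alternatives were the replicate block, an intensity trend, the trend together with robust variances, filters on low signal and on unnamed transcript clusters, quantile normalization, centring, array weights, other thresholds and leaving out each array.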

Additional observations from a re-analysis of the deposited data

How the results depend on the processing

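The median difference of the 50 effector genes (0.483 to 0.575 without 1 array) moved by less than the replicate spread under every alternative run. The count of 40 of 50 genes with both fb-PMT values above both control values was also 40 after quantile normalization and after centring. It was 39 without the lowest 30%. Without 1 array it was 42 to 45, but with a lone array in a group such a separation is easier to reach. The filter on negative controls left 39 genes, 34 of them so separated. However, that filter also keeps genes above the negative controls in the fb-PMT group only, which favours such a separation. Among the 34 genes above the negative controls on all 4 arrays, 30 were so separated. How many genes passed depended on how the variance was modelled and on which transcript clusters were tested. As reported, 0 effector genes, 3 further pathway genes and 21 transcript clusters in all passed, counting both directions. An intensity trend gave 12, 16 and 403 (293 higher and 110 lower), and with robust variances 12, 15 and 394. Leaving out the lowest 30% gave 4, 6 and 67, keeping only transcript clusters above the negative controls on both arrays of at least 1 group 11, 17 and 318, and only those with 1 symbol 2, 5 and 44. The filter on negative controls let in IFIT5, OAS2, TRIM21, HERC6, EPSTI1, GBP4, RIGI, GBP1 and TAP1 through the fb-PMT group alone. That favours a rise, and IFIT5, GBP4 and RIGI were among those that passed under this filter. A threshold of 0.1 gave 4, 7 and 73, and a threshold of 0.01 gave 0, 0 and 2. No effector gene passed as lower in any of these. Leaving out 1 array, with the lone array assumed to vary like the other group, gave 0, 0 to 1, and 1 to 9.

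Whether the replicate numbers pair the arrays is not known. The correlation of deviations between the replicate 1 arrays of both groups was 0.042 over all transcript clusters. Of these 21448, 11820 lay below the negative controls on all 4 arrays, so the value cannot decide the question. With the replicate number as a block, 0 effector genes, 0 further genes and 1 transcript cluster passed. In that fit adjusted p was 0.0814 for IRF1 and GBP4 and 0.144 for PSMB9.

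Some signs turned. OAS1 had a difference of -0.0106 after quantile normalization, and without 1 array OAS1 ran from -0.0998 to 0.164, EIF2AK2 from -0.101 to 0.0863 and HERC6 from -0.0749 to 0.293. Of the genes below the negative controls, HERC5, RSAD2, ISG15 and ISG20 also turned without 1 array. The cause was not tested. Signal below the negative controls limits the 10 genes named as such, and 2 arrays a group limit calls to large changes.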

Other observations

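Among the genes typical of interferon gamma and IRF1, 12 of the 24 measured passed as higher with the intensity trend, against 1.37% of all transcript clusters. The list was drawn up with earlier results of these data known. Several of the 12 were genes of antigen presentation. The genes named here were chosen after their values were seen. PSMB10 and PSMB8, catalytic subunits of the immunoproteasome beside PSMB9, had differences of 1.89 ± 0.32 (adjusted p = 0.186) and 1.28 ± 0.16 (adjusted p = 0.0779). PSMB8 read 11.65 and 11.79 in the control group and 12.92 and 13.09 after fb-PMT. TAPBP, which loads peptides onto class I molecules, read 11.16 and 11.27 against 12.32 and 12.43 (1.16 ± 0.15, adjusted p = 0.0943). B2M, the light chain of class I molecules, read 15.40 and 15.33 against 16.26 and 16.31 (0.93 ± 0.15, adjusted p = 0.151). GBP3 had a difference of 1.53 ± 0.17 (adjusted p = 0.0675). In contrast, the chemokine genes CXCL9, CXCL10 and CXCL11, IDO1, CIITA, NLRC5, GBP5 and CD274 lay below the negative controls on every array.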
